A study of Mus musculus with 4 samples.

Results

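Haematopoietic cytokine receptors are the surface proteins through which marrow progenitors read the growth factors of the blood lineages. 8 receptor genes were taken by symbol from a table of 16673 genes, and all 8 were present: Kit, Flt3, Csf1r, Epor, Csf3r, Csf2ra, Csf2rb and Il7r. The RNA came from lineage-negative (Lin–) marrow, from which cells bearing markers of mature blood lineages have been depleted, of 4 mice aged 2 months, each mouse with a library of its own. 2 mice carried Tie2+/cre with Tet3F/F (labelled cKO) and 2 carried Tet3F/F without Cre (labelled control), so the floxed Tet3 alleles are shared by both groups. TET3 oxidises 5-methylcytosine in DNA. Tie2 (Tek) drives Cre in endothelial cells and in the early blood cells that arise from them, so recombination is not limited to adult marrow progenitors. The comparison asks how receptor transcripts in Lin– cells differ when Tet3 is targeted. Of the 8 receptors, 0 passed the test between cKO and control libraries.

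As background, Kit, Flt3 and Csf1r are receptor tyrosine kinases, which phosphorylate themselves and their adaptors when ligand brings 2 chains together. Epor, Csf3r, the Csf2ra and Csf2rb chains and Il7r are cytokine receptors without a kinase of their own, which borrow JAK kinases to phosphorylate STAT factors. Kit serves stem cells, early progenitors and mast cells. Flt3 serves lymphoid-primed and dendritic progenitors, Csf1r monocytes and macrophages, Csf3r granulocytes, Epor erythroid progenitors and Il7r lymphoid progenitors. The alpha chain Csf2ra with the shared beta chain Csf2rb forms the receptor for GM-CSF, and Csf2rb also pairs with the IL-3 and IL-5 receptor alpha chains.

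The 250 bases before the RefSeq transcription start (build GRCm38.p6) are shown for 4 receptors, chosen because Epor and Csf3r lay on opposite sides in control replicate 2 and because Csf2ra and Il7r had the largest differences between the groups. The windows are chr9:21963577-21963826 on the minus strand for Epor, chr4:126024409-126024658 on the plus strand for Csf3r, chr19:61228419-61228668 on the minus strand for Csf2ra and chr15:9529877-9530126 on the minus strand for Il7r. Each is written 5′ to 3′ along its gene, and capitals mark the GATA-type hexamer AGATAA in Epor, the ETS-type heptamer GAGGAAG in Csf3r and Csf2ra and the ETS-type hexamer GGAAGT in Il7r, searched on both strands. These motifs were chosen after the sequences had been seen.
Epor: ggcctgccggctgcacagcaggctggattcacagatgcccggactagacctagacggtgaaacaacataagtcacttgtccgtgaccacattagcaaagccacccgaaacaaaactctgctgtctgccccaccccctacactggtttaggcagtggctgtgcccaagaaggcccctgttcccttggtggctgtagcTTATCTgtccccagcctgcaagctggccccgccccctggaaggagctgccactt
Csf3r: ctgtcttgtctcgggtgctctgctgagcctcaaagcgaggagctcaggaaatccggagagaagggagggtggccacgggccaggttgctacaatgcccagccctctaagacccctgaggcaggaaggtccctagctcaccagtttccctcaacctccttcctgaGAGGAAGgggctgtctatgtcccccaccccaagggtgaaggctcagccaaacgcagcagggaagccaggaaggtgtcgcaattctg
Csf2ra: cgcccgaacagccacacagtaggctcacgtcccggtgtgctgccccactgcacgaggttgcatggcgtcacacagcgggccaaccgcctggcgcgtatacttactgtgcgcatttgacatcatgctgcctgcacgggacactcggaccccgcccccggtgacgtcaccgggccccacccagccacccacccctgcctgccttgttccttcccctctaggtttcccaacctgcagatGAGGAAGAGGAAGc
Il7r: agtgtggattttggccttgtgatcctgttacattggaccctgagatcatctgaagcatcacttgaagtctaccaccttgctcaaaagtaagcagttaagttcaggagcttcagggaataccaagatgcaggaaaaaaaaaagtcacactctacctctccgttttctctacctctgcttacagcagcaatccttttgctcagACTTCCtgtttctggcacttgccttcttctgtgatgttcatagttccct
The Epor match begins 54 bases before the start, that of Csf3r 86 bases before, and that of Il7r 49 bases before. Csf2ra held 2 overlapping matches of GAGGAAG, which begin 14 and 8 bases before the start. AGATAA was in 9.99% of the 32851 promoter windows of this length, GAGGAAG in 10.6% and GGAAGT in 19.7%. These 2 ETS-type motifs share letters and can overlap. A match describes these letters and is not a measured binding site. CpG, the sequence in which TET3 acts on methylated cytosine, occurred 17 times in the Csf2ra window, 6 times each in those of Epor and Csf3r and 1 time in that of Il7r, against a median of 6 over all windows. Of the 8 receptors, Csf1r was left out of this search and Csf2rb had no entry among the promoter windows. Windows were found for the 6 others, and those not shown held 17 or more CpG for Kit and 13 for Flt3. The Kit window also held GAGGAAG and the Flt3 window GGAAGT.

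The libraries held 28845037 and 30020188 reads in genes for cKO replicates 1 and 2, and 39199593 and 46673855 for control replicates 1 and 2. The receptors had 468 to 14465 reads per library, for which counting error alone is 9.06% and 1.63% (half-widths of 95% intervals). Values are normalized counts, reads divided by a size factor per library, and fold changes are differences of log2(normalized count + 1), cKO minus control. Control replicate 2 stood apart: it correlated with the others at 0.93 to 0.95 over genes, and mitochondrial protein genes took 8.16% of its reads against 0.99% to 1.26% elsewhere. Tet3 itself, counted over the whole gene, had 6400 and 5084 normalized counts in cKO libraries, against 5056 and 6593 in control libraries, which checks no label because exons outside the floxed part are counted. Xist had 87442 and 48951 normalized counts in cKO libraries, against 5.54 and 9.57 in control libraries, and 4 Y genes had 0 reads in both cKO libraries. Genotype and sex therefore cannot be told apart in any value below, although all 8 receptors lie on autosomes. Stem cell and progenitor transcripts were present in all 4 libraries: all 8 markers of that list were measured, and Cd34 had 13170.3 and 13116 normalized counts in cKO libraries and 11733 and 8599 in control libraries.

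The receptors split into those whose groups were apart and those whose control libraries were apart from each other. In Kit, Flt3 and Il7r both cKO libraries lay above both control libraries, and in Csf2ra both lay below, 4 of 8 receptors in all. Over all 16598 genes tested the groups did not overlap in 38.7%, with 19.2% above and 19.5% below, so this share is near the background. By the test, limma with p-values adjusted over all genes after Benjamini and Hochberg (BH) at a threshold of 0.05, 0 of 8 receptors passed, and 12 genes (0.0723%) passed in all. Xist and the Y genes counted above were among these 12. 2 receptors, Csf2ra and Flt3, had an unadjusted p under 0.05, against 1013 genes (6.1%) in all, and edgeR and DESeq2 on the recovered reads also called 0 receptors, with 0.0723% and 0.702% of genes called. Against control replicate 1 alone the cKO libraries were on one side in 8 of 8 receptors (71.5% of all genes), and against control replicate 2 alone also in 8 of 8 (80.5%). Without cKO replicate 1 the groups did not overlap in 4 of 8 (58.3% of all genes), and without cKO replicate 2 also in 4 of 8 (67.1%). In 4 of 8 receptors the 2 control libraries were more than 0.5 log2 units apart, and in 1 of 8 the cKO libraries were (41.7% and 26.3% of all genes tested, for control and cKO).

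**Figure D1:**
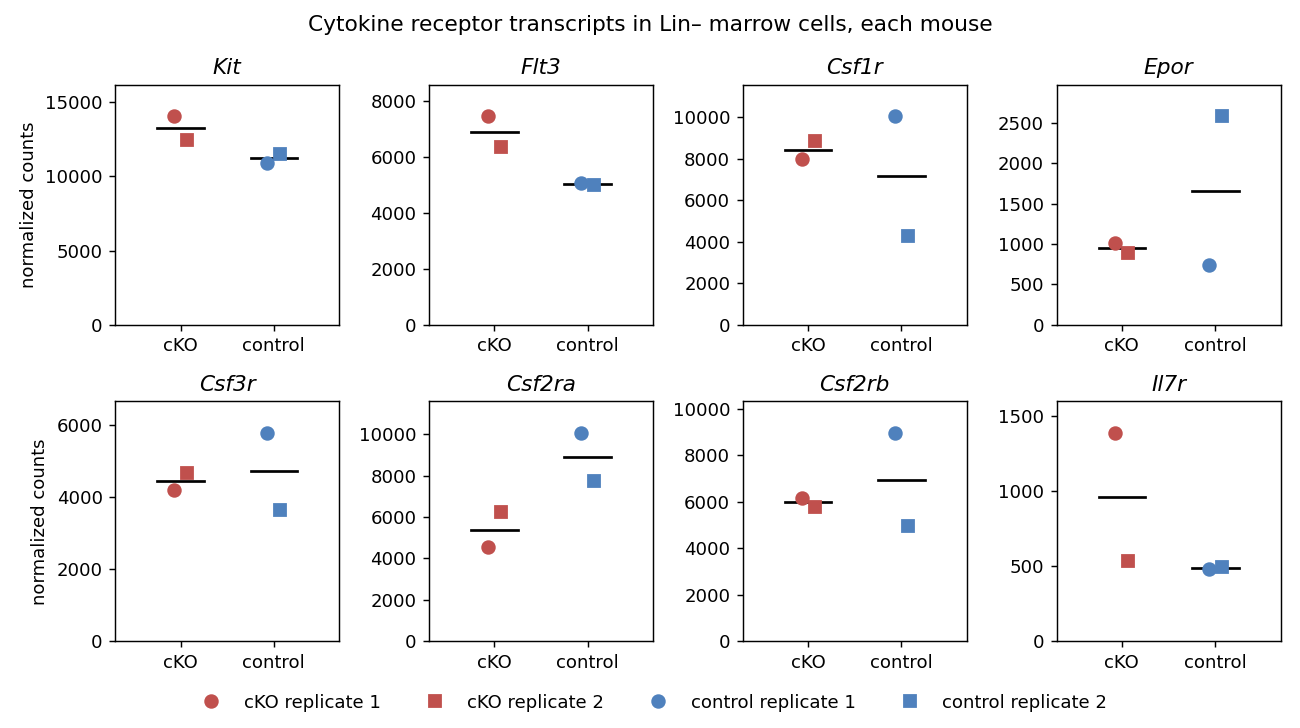
Normalized counts of each receptor (vertical axis, from 0) in the 2 cKO libraries (left, red) and the 2 control libraries (right, blue). Circles are replicate 1, squares replicate 2, and bars the group means; Csf1r, Epor, Csf3r and Csf2rb have their widest gap between the 2 control libraries, and Il7r between the 2 cKO libraries.

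Kit, the receptor for stem cell factor, had 14050.5 and 12478 normalized counts in cKO libraries, against 10915 and 11537 in control libraries. Both cKO libraries were above both control libraries, by a small margin. The log2 fold change was 0.24 (SE 0.19, 95% interval -0.21 to 0.68), and limma's BH-adjusted p was 0.78. Its partner in early progenitors, Flt3, had 7456 and 6339 normalized counts in cKO libraries, against 5052 and 4999 in control libraries. The control libraries were nearly equal, and the lower cKO library stood above them by more than their gap. Flt3 averaged 6898 ± 790 in cKO and 5025 ± 37.9 in control libraries (SD, n = 2 each), which is 0.45 on the log2 scale (SE 0.19, 95% interval 0.02 to 0.89) with a limma p of 0.043 before and 0.76 after BH adjustment. When libraries were left out singly, the log2 fold change stayed between 0.34 and 0.57 for Flt3 and between 0.15 and 0.32 for Kit.

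Markers of the cells that use these receptors were measured beside them. The stem cell and multipotent progenitor list summed to 17028 and 17620 normalized counts in cKO libraries, against 14353 and 12684 in control libraries. Most of this sum was Cd34 in every library, so it mainly reports that gene. Of the 8 members 6 were above 0 in fold change, with a median of 0.36. In 3 of them both cKO libraries were above both control libraries (37.5%, against 19.2% of all genes), and in 0 below. Procr, its defining marker and the endothelial protein C receptor of stem cells, had 125 and 85.0 normalized counts in cKO libraries, against 71.1 and 149.95 in control libraries, so its groups overlapped. The dendritic cell list holds Flt3 itself. Its 8 other members summed to 7890 and 6591 normalized counts in cKO libraries, against 5552 and 7319 in control libraries, so their sum overlapped between the groups. Of these 8, 4 had a positive fold change and 4 a negative one (median 0.00). Both cKO libraries were above both control libraries in 3 of them (against 19.2% of all genes) and below in 1 (against 19.5%). Siglech, the list's defining marker, which marks plasmacytoid dendritic cells, had 2408 and 1389 normalized counts in cKO libraries, against 1021 and 1161 in control libraries. Bst2, another marker of these cells, was the 1 member below, with 3127 and 3334 in cKO libraries, against 3439 and 4698 in control libraries. Clec9a, the member with the smallest p-value, lay above, with 1037 and 962 in cKO libraries, against 378 and 402 in control libraries. Its log2 fold change was 1.36 (SE 0.23, limma BH-adjusted p = 0.30). The part of stem cells, progenitors and dendritic cells in the Kit and Flt3 values was not tested. In bulk RNA, fewer cells of a type and less RNA per cell cannot be told apart, here or in any value below.

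Csf1r, the receptor for macrophage colony-stimulating factor, had 7982 and 8829 normalized counts in cKO libraries, against 10036 and 4254 in control libraries. Both cKO libraries lay between the 2 control libraries, which differed by 1.24 log2 units. The log2 fold change was 0.36 (SE 0.37, 95% interval -0.50 to 1.22; limma BH-adjusted p = 0.82). Leaving out control replicate 2 gave -0.26. Leaving out control replicate 1 gave 0.98, which passed (limma BH-adjusted p = 0.044) among 392 genes (2.38%) that did so against the library that stood apart. The sum of the monocyte and macrophage list followed a like order, with 70948 and 85657 normalized counts in cKO libraries and 110144 and 62273 in control libraries. Of its 11 members, F13a1, Ms4a6c and Adgre1 had the order of Csf1r and the others did not. Both cKO libraries were above both control libraries in 2 members and below in 2 (18.2% each, against 19.2% and 19.5% of all genes). Ly86, the list's defining marker, had 2688 and 3622 in cKO libraries and 3554 and 2532 in control libraries, and the part of such cells in the Csf1r value was not tested. In GENCODE M21 15.1% of the exonic bases of Csf1r overlap Hmgxb3 on the other strand, and whether the counting used strand is not stated in the labels, so reads there cannot be assigned.

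Epor, the erythropoietin receptor, had 1011 and 887 normalized counts in cKO libraries, against 737 and 2582 in control libraries. Control replicate 2 was 3.50 times control replicate 1 and above every other library, and both cKO libraries lay between them. The log2 fold change was -0.54 (SE 0.51, 95% interval -1.73 to 0.65; limma BH-adjusted p = 0.80). Its sign rested on 1 library: leaving out control replicate 2 gave 0.36, and leaving out control replicate 1 gave -1.45, which passed (limma BH-adjusted p = 0.021). The erythroid list summed to 43831 and 15941 normalized counts in cKO libraries, against 32319 and 92509 in control libraries, and all 10 of its members were higher in control replicate 2 than in control replicate 1. Between the cKO libraries the erythroid sum differed 2.75 times and Epor 1.14 times. Per unit of Klf1, an erythroid transcription factor, Epor was 0.585 and 0.610 in cKO libraries and 0.672 and 0.747 in control libraries, so that both cKO libraries were lower in this ratio. Per unit of Gata1, another such factor, Epor was 0.501 and 0.567 in cKO libraries and 0.538 and 0.516 in control libraries, so that the groups overlapped. Both factors were chosen with their values known, and neither ratio was tested. The part of erythroid cells in the Epor value was not tested.

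**Figure D2:**
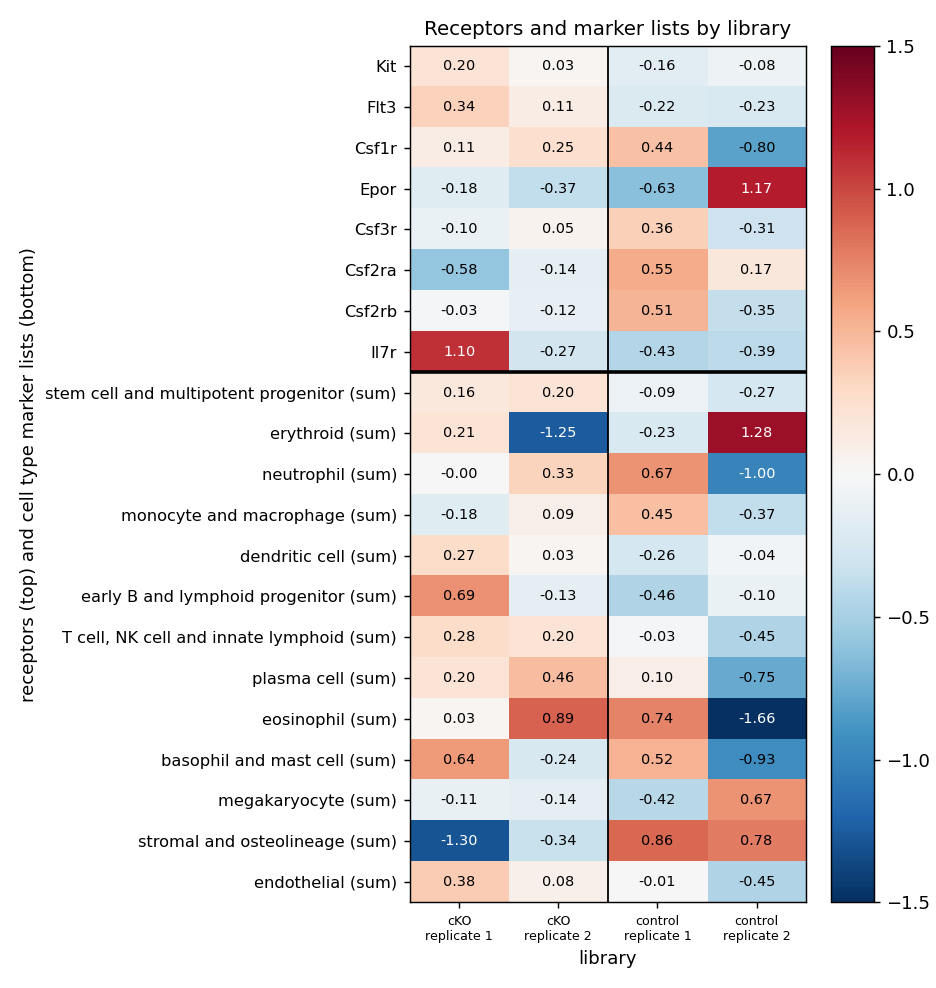
Level of each receptor (top 8 rows) and of the summed markers of each cell type (bottom 13 rows) in each library, as log2 distance from the mean of the 4 libraries. Epor (1.17) and the erythroid sum (1.28) are high together in control replicate 2, where Csf1r (-0.80) and the eosinophil sum (-1.66) are low.

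Csf3r, the receptor for granulocyte colony-stimulating factor, had 4210 and 4678 normalized counts in cKO libraries, against 5788 and 3643 in control libraries. As with Csf1r, both cKO libraries lay between the control libraries, with control replicate 1 highest and control replicate 2 lowest. The log2 fold change was -0.05 (SE 0.25, 95% interval -0.63 to 0.53; limma BH-adjusted p = 0.97). Leaving out control replicate 2 gave -0.38, and leaving out control replicate 1 gave 0.28. The neutrophil list summed to 373172 and 469211 normalized counts in cKO libraries, against 594130.4 and 186614 in control libraries. Elane, the neutrophil elastase of the primary granules and the list's defining marker, had 49102 and 77725 in cKO libraries, against 103931 and 23031 in control libraries. The order of the 4 libraries was thus the same for Csf3r, the neutrophil sum and Elane, which is itself part of that sum. Mpo was the largest part of the sum in every library. Mpo, Ctsg, Ltf, Fcnb and Ngp also had this order, while Prtn3, Camp, S100a8, S100a9 and Retnlg did not. The part of neutrophil precursors in the Csf3r value was not tested.

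Csf2ra, the GM-CSF receptor alpha chain, had 4576 and 6222 normalized counts in cKO libraries, against 10073 and 7730.3 in control libraries. Both cKO libraries were below both control libraries, and no such gap was seen in its beta chain. Csf2ra averaged 5399 ± 1164 in cKO and 8902 ± 1656 in control libraries (SD, n = 2 each), so control was 1.65 times cKO. Its log2 fold change was -0.73 (SE 0.23, 95% interval -1.27 to -0.18), with a limma p of 0.015 before and 0.76 after BH adjustment. Differences at least as large in size were seen in 17.3% of genes tested. Unlike Csf1r, Epor and Csf3r it kept its sign with each library left out, from -0.95 without cKO replicate 2 to -0.50 without cKO replicate 1. The neutrophil and monocyte sums given above overlapped between the groups, as did those of eosinophil genes (13064 and 23765 in cKO, 21495 and 4060 in control libraries) and of basophil and mast cell genes (31051 and 16874 in cKO, 28546 and 10443 in control libraries). The stromal and osteolineage list was the 1 list whose sum did not overlap in the direction of Csf2ra, with 4724 and 9211 normalized counts in cKO libraries, against 21076 and 19969 in control libraries. Col1a1 and Col1a2 made up a large part of this sum. In 4 of the 6 members both cKO libraries lay below both control libraries (66.7%, against 19.5% of all genes). In 1 member, Lepr, both lay above (16.7%, against 19.2% of all genes), and in Cxcl12 the groups overlapped. Col1a1, the list's defining marker, had 1258 and 3299 in cKO libraries, against 10275 and 8090.0 in control libraries, and the part of such cells in the Csf2ra value was not tested.

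Csf2rb, the beta chain shared by the GM-CSF, IL-3 and IL-5 receptors, had 6164 and 5781 normalized counts in cKO libraries, against 8963 and 4938 in control libraries. Its cKO libraries lay between its control libraries. The log2 fold change was -0.16 (SE 0.28, 95% interval -0.82 to 0.51; limma BH-adjusted p = 0.90), and it was -0.59 or 0.27 when control replicate 2 or 1 was left out. Mice have a close copy, Csf2rb2, whose product serves the IL-3 receptor, and 12.3% of all 50-base windows of the Csf2rb transcripts also occur in those of Csf2rb2 (2.30% of 150-base windows). How such reads were counted is not stated in the labels, so the split between the copies is uncertain. Csf2rb2 had 2232 and 1579.7 normalized counts in cKO libraries, against 1797 and 995 in control libraries, and the sum of both copies was 8396 and 7361 in cKO libraries and 10759.7 and 5933 in control libraries. The sum overlapped between the groups as Csf2rb did.

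Il7r, the interleukin-7 receptor alpha chain of lymphoid progenitors and lymphocytes, had 1390.3 and 538 normalized counts in cKO libraries, against 480.1 and 495 in control libraries. Replicate 1 of cKO was 2.59 times replicate 2, and replicate 2 stood slightly above the control libraries. The log2 fold change was 0.83 (SE 0.42, 95% interval -0.16 to 1.81; limma BH-adjusted p = 0.76), the largest of the 8 in size, and 14.5% of genes tested had one at least as large. Without cKO replicate 1 it was 0.14, and without cKO replicate 2 it was 1.51. The early B and lymphoid progenitor list was also highest in cKO replicate 1, with sums of 7124 and 4022 normalized counts in cKO libraries, against 3216 and 4113 in control libraries, and all 10 of its members were higher in cKO replicate 1 than in replicate 2. Most of this sum was Dntt in every library, so it mainly reports that gene. All 10 members had a positive fold change (median 0.75). In 5 of the 10 both cKO libraries were above both control libraries (50%, against 19.2% of all genes), and in 0 below. Pax5, the B lineage factor, had 194 and 14.9 in cKO libraries, against 7.39 and 11.2 in control libraries, and Rag1, of the recombinase that joins antigen receptor segments, had 388 and 73.5 in cKO libraries, against 81.2 and 191 in control libraries. Vpreb1, the list's defining marker and a surrogate light chain, had 31.5 and 19.5 in cKO libraries, against 13.8 and 28.7 in control libraries. Genes of T, NK and innate lymphoid cells summed to 12963 and 12331 in cKO libraries, against 10449 and 7852 in control libraries. Nkg7 made up a large part of this sum, with 4975 and 6616 in cKO libraries, against 8474 and 4671 in control libraries. Of the 10 members 9 had a positive fold change and 1, Nkg7, a negative one (median 1.45). In 8 of the 10 both cKO libraries were above both control libraries (80%, against 19.2% of all genes), and in 0 below. Cd3e, the defining marker of that list, had 460 and 292 in cKO libraries, against 67.4 and 177 in control libraries. The part of B and T lineage cells in the Il7r value was not tested.

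**Figure D3:**
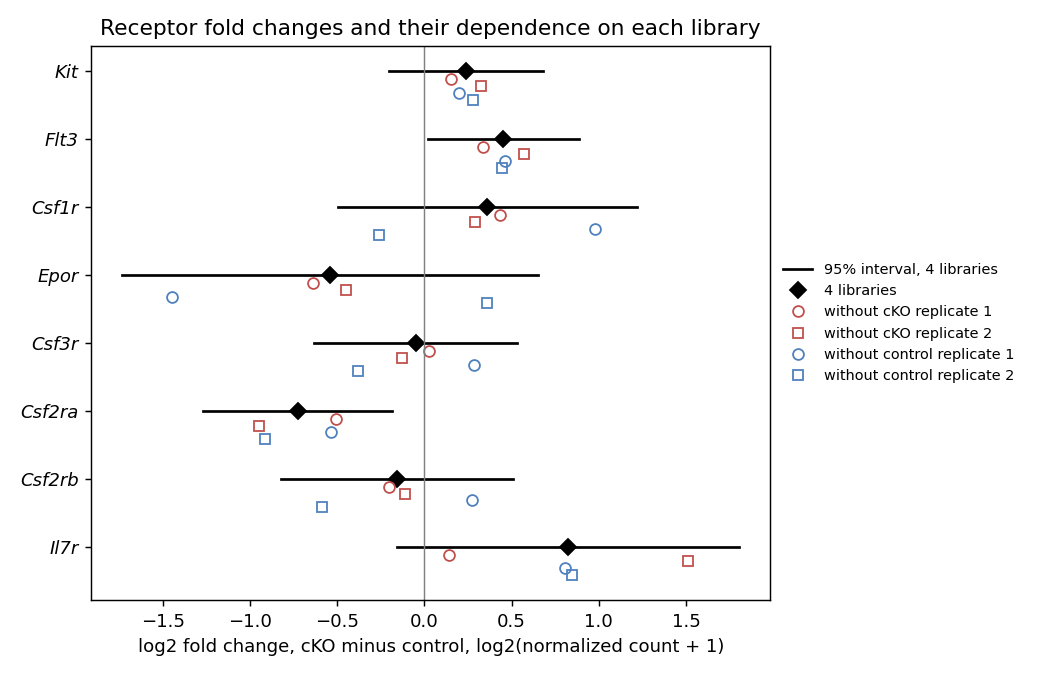
Log2 fold change of each receptor (cKO minus control, horizontal axis) from all 4 libraries with its 95% interval (black), and with each library left out (open symbols). Csf2ra, Kit, Flt3 and Il7r keep their sign in every case, while Csf1r, Epor, Csf3r and Csf2rb change sign with the control library used.

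Per kb of exon, which allows receptors to be compared with each other, Csf2ra was the highest of the 8 in all 4 libraries and Il7r the lowest. In cKO libraries Csf2ra averaged 1881 ± 405 normalized counts per kb, followed by Kit at 1488 ± 125, Csf1r at 1456 ± 104, Csf3r at 1231 ± 91.8, Flt3 at 1117 ± 128, Csf2rb at 821 ± 37.2, Epor at 477 ± 44.1 and Il7r at 207 ± 129 (SD, n = 2). The neighbours Csf2ra and Kit, Kit and Csf1r, and Csf3r and Flt3 differed by less than the larger of their SDs. In control libraries Csf2ra averaged 3101 ± 577, and Csf3r (1307 ± 420), Kit (1260 ± 49.4), Csf1r (1237 ± 708), Csf2rb (955 ± 391), Epor (834 ± 656) and Flt3 (814 ± 6.13) followed, with no neighbours among these 6 differing by more than the larger SD. Il7r was last in control libraries at 105 ± 2.19. As a share of the 8-receptor sum, Csf2ra took 18.6% and 24.7% in cKO libraries, against 33.1% and 31.2% in control libraries. Kit took 18.4% and 16.0% in cKO libraries and 11.6% and 15.0% in control libraries, and Flt3 took 14.1% and 11.7% in cKO libraries and 7.72% and 9.38% in control libraries. Il7r took 3.48% and 1.31% in cKO libraries and 0.97% and 1.23% in control libraries. The groups did not overlap in these 4 of the 8 shares, which belong to the same 4 receptors whose normalized counts did not overlap (38.7% of all genes did not, in normalized counts). Shares of the same sum depend on each other, because a lower share of Csf2ra goes with a higher share for the rest. The 4 shares are therefore not separate observations. Epor took 5.92% and 5.08% in cKO libraries and 3.50% and 15.0% in control libraries, from the seventh place to the second between the 2 control mice. These lengths come from GENCODE M21 and may differ from those of the annotation behind the counts.

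**Figure D4:**
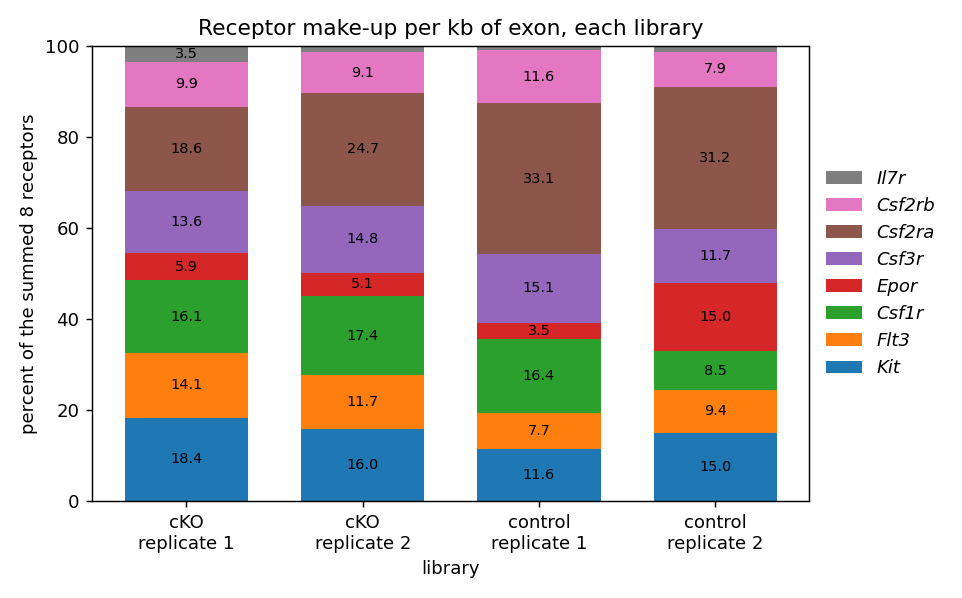
Share of each receptor in the sum of all 8, in normalized counts per kb of exon (vertical axis, percent), for each library. Csf2ra is the largest share in every library, 18.6% and 24.7% in cKO and 33.1% and 31.2% in control, and Epor reaches 15.0% in control replicate 2 alone.

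The ligands of these receptors were sparse in Lin– cells, which are not their main source. Of 12 ligand genes 6 were in the table and 5 passed the filter on low values, and 0 were called. Csf1 had 576 and 537 normalized counts in cKO libraries, against 608 and 372 in control libraries, Kitl, the Kit ligand, had 88.7 and 122 in cKO libraries, against 46.2 and 121 in control libraries, and Il7 had 51.4 and 18.4 in cKO libraries, against 13.8 and 20.7 in control libraries. The ligand groups overlapped in all 5 tested genes, while 38.7% of all genes tested did not overlap. All 5 had a log2 fold change above 0 (median 0.22, against 0.01 over all genes tested).

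Among 27 partner and related receptor chains, 0 were called, 17 had a log2 fold change above 0 and 10 below, and the median was 0.20, against 0.01 over all genes tested. Both cKO libraries were above both control libraries in 4 of them and below in 4, which is 29.6% not overlapping, against 38.7% of all genes tested. Il2rb, the beta chain of the IL-2 and IL-15 receptors of T and NK cells, had 3125 and 2271 normalized counts in cKO libraries, against 698 and 1099 in control libraries (log2 fold change 1.60, SE 0.28, limma BH-adjusted p = 0.32). The growth hormone receptor gene Ghr had 119 in each cKO library, against 19.4 and 14.4 in control libraries (2.76, SE 0.55). On the lower side were Crlf2, the TSLP receptor chain that pairs with Il7r, with 1682 and 1604 in cKO libraries, against 2567 and 2776 in control libraries (-0.70, SE 0.19), and Il3ra, the IL-3 receptor alpha chain that pairs with the beta chains, with 1528 and 2147 in cKO libraries, against 2302 and 3434 in control libraries (-0.63, SE 0.27). Crlf2 and Il3ra thus lay on the same side as Csf2ra, and none of these genes passed the test. The common gamma chain Il2rg, which pairs with Il7r, had 1200.1 and 1174 in cKO libraries and 1231 and 1078 in control libraries, and its groups overlapped.

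Transcripts of the signalling proteins below the receptors had list medians close to that of all genes. Of 11 JAK and STAT genes 0 were called, with 6 above 0, 5 below and a median of 0.02. In 4 of them both cKO libraries were above both control libraries (36.4%, against 19.2% of all genes), and in 2 below (18.2%, against 19.5%). Jak2, the kinase used by Epor and Csf2rb, had 5098 and 4366 normalized counts in cKO libraries, against 3731 and 4083 in control libraries (log2 fold change 0.27, SE 0.19), and Jak1 had 8705 and 7183 in cKO libraries, against 6799 and 5651 in control libraries (0.35, SE 0.20). Jak3, which works with the common gamma chain, had 3666 and 3258 in cKO libraries, against 4214 and 3973 in control libraries (-0.24, SE 0.18). The 21 kinase and adaptor genes had a median of 0.07, with 13 above 0 and 8 below, and 0 called. The groups did not overlap in 23.8% of them, against 38.7% of all genes tested. Mapk3 (ERK1) had 3302 and 4277 in cKO libraries, against 4885 and 5062 in control libraries (-0.40, SE 0.20).

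Inhibitors and target genes of these pathways went both ways. Of 19 negative regulators 0 were called, with 10 above 0 and 9 below, while both cKO libraries were above both control libraries in 5 (26.3%, against 19.2% of all genes) and below in 6 (31.6%, against 19.5%). Socs2 and Cish, feedback inhibitors induced by STAT5, had log2 fold changes of 0.84 (SE 0.39) and 0.66 (SE 0.33). Cish had 502 and 414 normalized counts in cKO libraries, against 226 and 368 in control libraries, and Socs2 had 389.9 and 238 in cKO libraries, against 137 and 211 in control libraries. Socs3, the inhibitor of the G-CSF receptor pathway, had 174 and 186 in cKO libraries, against 292 and 383 in control libraries (-0.89, SE 0.32). The list of STAT5 and ERK targets, which shares Cish, Socs2 and Socs3 with the negative regulators, had 20 tested members, 0 called, 7 above 0, 13 below and a median of -0.36. In this list both cKO libraries were above both control libraries in 5 members (25%, against 19.2% of all genes) and below in 10 (50%, against 19.5%). Egr1, an immediate early gene of the ERK pathway, had 53.7 and 55.1 in cKO libraries, against 205 and 391 in control libraries (-2.36, SE 0.45; limma BH-adjusted p = 0.42), and the cell cycle gene Ccnd3 had 7817 and 7871 in cKO libraries, against 10825 and 13233 in control libraries (-0.61, SE 0.20).

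Of 19 transcription factors known to act at receptor genes, 0 were called, with 11 above 0, 8 below and a median of 0.03. Cebpb, a factor of stress granulopoiesis, had the smallest p-value among them, with 1166 and 2009 normalized counts in cKO libraries, against 3079 and 4045 in control libraries (log2 fold change -1.20, SE 0.29; limma BH-adjusted p = 0.67). Gfi1, a transcriptional repressor that acts in granulocyte development, had 1911 and 2655 in cKO libraries, against 3412 and 2804 in control libraries (-0.46, SE 0.23). Gabpa, an ETS factor known to act at Il7r, had 3892 and 3819 in cKO libraries, against 3550 and 2812 in control libraries (0.29, SE 0.20).

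The genes whose profile over the 4 libraries was most like that of each receptor were ranked by Euclidean distance between centred log2 values, over 11478 genes whose mean reached 50. With 4 libraries such likeness is a description and says nothing of shared control. Epor was closest to Car2, the carbonic anhydrase of red cells, at a distance of 0.096, and next to Gata1, the erythroid transcription factor gene on the X chromosome, at 0.13, and 3 genes in all lay within 0.2. Gata1 had 2020 and 1565 normalized counts in cKO libraries, against 1369 and 5005 in control libraries. Il7r had 2 genes within 0.2, Mctp2 (0.16) and Hivep2 (0.18), which were high in cKO replicate 1 as it was; Hivep2 had 819 and 314 in cKO libraries, against 301 and 338 in control libraries. Csf2ra had 12 genes within 0.2, led by Rspo1 (0.069) and Anxa2 (0.088). Kit had 643 such genes, Flt3 255 and Csf3r 334, so their shallower profiles were shared with many genes, while Csf1r had 55 and Csf2rb 44. The closest gene was Lrig2 for Kit, Slf2 for Flt3, Hyou1 for Csf1r, Slc27a4 for Csf3r and Xrcc4 for Csf2rb. Among the receptors themselves, Kit and Flt3 (0.23) and Csf3r and Csf2rb (0.24) were the nearest pairs, and Epor and Csf1r (2.35) the farthest.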

How the data were processed

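RNA-seq of Lin– marrow cells from 4 mice was used in the unit in which the authors deposited it, a signal per gene: reads over a size factor of each library, per the file headers. The submitters' processing notes name build mm39 and the tools SAMtools, Trim Galore 0.6.7, featureCounts, STAR 2.7.9a and DESeq2. Settings and annotation are not given there. The columns named WT stand for the control samples of the same number. All values (100%) were whole multiples of 1 read within 0.1 read, so whole reads were recovered. No gene had fewer than 41 reads over the 4 libraries, so sparser genes had been left out before.

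The main test used log2(normalized count + 1) in limma 3.58.1 under R 4.3.3, two-sided with a variance trend, for the 16598 genes whose mean reached 10. P-values were adjusted by Benjamini-Hochberg, with calls at 0.05. Degrees of freedom were 2 residual and 5.48 prior. With 2 mice against 2, an exact permutation test has 0.33 as its smallest p. Per the labels, RNA was taken from 2 mice per genotype, and replicates differed by more than counting noise (chi-square over degrees of freedom 37.7 for cKO, 293 for control).

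Receptors, lists, tests and named genes were chosen with earlier results of these data known. The named genes are the receptors, Tet3, Csf2rb2, up to 4 members of each pathway list by p-value, the nearest profiles and the defining marker of each cell type list, of which some are not reported here. Others named with values (Cd34, Bst2, Clec9a, Nkg7, Pax5, Rag1, Klf1, Il2rg and the sex-linked genes) were chosen after their values were seen. So were the list members named without values. Alternatives were a pseudocount of 0.5 or 10, a mean of 50 or no filter, TMM, quantile normalization, no trend, a replicate block, leaving out libraries singly, and count tests on the recovered reads (edgeR 4.0.16, DESeq2 1.42.0). The steps were tested on simulated data. Promoters are RefSeq windows (GRCm38.p6) and lengths are from GENCODE M21 (GRCm38), both another build than that of the reads.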

Additional observations from a re-analysis of the deposited data

How the results depend on the processing

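Over 14 alternatives for each of 8 receptors, 105 of 112 fold changes kept their sign and did not pass. The 7 others came from leaving out a library: without control replicate 1 Csf1r (0.98) and Epor (-1.45) passed and Csf2rb (0.27) and Csf3r (0.28) changed sign, without control replicate 2 Csf1r (-0.26) and Epor (0.36) changed sign, and without cKO replicate 1 Csf3r did (0.03). With libraries left out singly Csf2rb ran from -0.59 to 0.27 and Csf3r from -0.38 to 0.28. A library left alone in its group was assumed to vary like the others. With each library left out, 0 to 2 receptors were called, the 2 without control replicate 1 (2.38% of all genes). The count of receptors whose groups do not overlap was repeated in the same way, a choice made after seeing the data: 8 receptors without control replicate 1 or 2 (80.5% and 71.5% of all genes) and 4 without cKO replicate 1 or 2 (58.3% and 67.1%). Over all genes, 5 were called higher, Xist among them, and 7 lower, among them the Y genes. These counts ran from 4 to 231 higher and from 8 to 161 lower with each library left out. DESeq2 called 74 higher and 38 lower. Higher calls numbered 2 without a trend, with a mean of at least 50 and with quantile normalization. With the replicate number as a block 3 genes were higher and 5 lower. The numbers do not pair the mice: deviations of same-numbered libraries correlated at -0.07 over genes. The causes were not tested. Counting error was at most 9.06% for a receptor in a library, and 2 mice per group limit the precision.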

Other observations

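The ratio of Csf2rb to its copy Csf2rb2, chosen after its values were seen, was 2.76 and 3.66 in cKO libraries, against 4.99 and 4.96 in control libraries. The control libraries were nearly equal in this ratio although each copy differed between them, with control replicate 2 at 0.551 times control replicate 1 for Csf2rb and 0.554 times for Csf2rb2. Since reads can be split between the copies, the ratio carries the uncertainty of the counting.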
